A study of Mus musculus with 12 samples.

Results

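The genes described here are the 10 that set whether pyruvate enters the mitochondria and whether the pyruvate dehydrogenase complex may act on it. They are the kinases Pdk1, Pdk2, Pdk3 and Pdk4, the phosphatases Pdp1 and Pdp2, the E1 subunits Pdha1 and Pdhb, and the mitochondrial pyruvate carriers Mpc1 and Mpc2. They were taken by symbol, with no threshold on their values, from a liver table of 48795 genes, and each symbol matched 1 row. RNA was sequenced from the livers of 12 female littermate mice, 4 months old and on normal chow. The 4 groups of 3 mice were Nts+/+ fed, Nts+/+ fasted, Nts-/- fed and Nts-/- fasted, where fed mice ate ad libitum and fasted mice had no food for 22 h. Nts encodes neurotensin, a gut peptide hormone, and the Nts-/- mice lack it in the whole body, so no effect can be placed in the liver itself. No other allele or agent is given in the labels.

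The libraries held between 21999647 and 45273069 counts, and all 10 genes had enough counts to be tested. Counts on Nts went against the genotype labels, since all 6 libraries labelled Nts+/+ had 0 counts, those labelled Nts-/- fed had 15 to 46, and those labelled Nts-/- fasted had 4 to 18. Every direction by genotype below is therefore that of the libraries as labelled. All 7 hepatocyte markers were abundant in every liver, with a summed level of 107835 to 146478 TMM-normalized CPM, which are counts divided by the library's total (CPM) and scaled so that most genes match between libraries. RNA of other tissues that express Pdk4 was near 0, with adipocyte markers summing to at most 0.26 CPM and skeletal muscle markers to at most 0.833 CPM. Lep, Retn, Acta1 and Myh4 were at 0 counts in all 12 livers.

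The pyruvate dehydrogenase complex turns pyruvate into acetyl-CoA inside mitochondria. Its E1 component is switched off when a PDK kinase phosphorylates the alpha subunit, and switched on again when a PDP phosphatase removes the phosphate. The mitochondrial pyruvate carrier, a pairing of MPC1 and MPC2, brings pyruvate across the inner membrane to the complex and to pyruvate carboxylase, which starts gluconeogenesis. In a fasted liver the complex is known to be kept phosphorylated, which saves pyruvate for glucose, and Pdk4 is the kinase gene best known to be induced by fasting. The mRNA levels below do not measure the phosphorylation or activity of any of these proteins.

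RefSeq promoters on build GRCm38.p6, the build of the deposited positions, were found for 9 of the 10 genes, in 12 windows of the 250 bases before a start site. The windows of Pdk4, Pdk2, Pdha1 and Mpc1 are shown, because Pdk4 had the largest fasting fold in Nts+/+ livers, Pdk2 varied least over mice among the 3 abundant kinases, and Pdha1 and Mpc1 were the members that passed the test within a genotype. They lie at chr6:5496279-5496528 on the minus strand for Pdk4, chr11:95041372-95041621 on the minus strand for Pdk2, chrX:160138431-160138680 on the minus strand for Pdha1 and chr17:8283537-8283786 on the plus strand for Mpc1. The Mpc1 window lies inside the gene as the deposited table bounds it. Each is written 5′ to 3′ along its own gene, ending next to the start site, and capitals mark every match to the motifs searched.
Pdk4: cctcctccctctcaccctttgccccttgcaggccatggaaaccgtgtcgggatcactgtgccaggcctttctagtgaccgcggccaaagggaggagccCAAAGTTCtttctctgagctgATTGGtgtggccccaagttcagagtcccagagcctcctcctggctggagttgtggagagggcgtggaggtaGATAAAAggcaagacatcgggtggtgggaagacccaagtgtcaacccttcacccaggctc
Pdk2: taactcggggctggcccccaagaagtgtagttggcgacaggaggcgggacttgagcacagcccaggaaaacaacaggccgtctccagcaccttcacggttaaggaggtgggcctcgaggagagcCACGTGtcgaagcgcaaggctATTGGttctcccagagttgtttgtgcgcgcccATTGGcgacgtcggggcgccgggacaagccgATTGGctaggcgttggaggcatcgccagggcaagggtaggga
Pdha1: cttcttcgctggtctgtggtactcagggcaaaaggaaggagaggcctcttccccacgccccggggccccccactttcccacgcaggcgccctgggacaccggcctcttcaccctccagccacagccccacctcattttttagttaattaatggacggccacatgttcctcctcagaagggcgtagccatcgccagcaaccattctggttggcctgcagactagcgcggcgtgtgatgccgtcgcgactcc
Mpc1: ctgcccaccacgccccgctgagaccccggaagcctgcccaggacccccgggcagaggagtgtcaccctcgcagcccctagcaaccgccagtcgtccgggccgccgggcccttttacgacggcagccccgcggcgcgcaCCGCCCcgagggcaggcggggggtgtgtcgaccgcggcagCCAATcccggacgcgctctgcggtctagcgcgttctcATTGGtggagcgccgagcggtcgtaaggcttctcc

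Motifs were searched on both strands, and none of the capital runs above joins matches of different motifs. The Pdk4 window held 1 CCAAT box (CCAAT) 131 bases before the start site, a TATA-like motif (GATAAAA) 60 bases before it and an HNF4-type motif (CAAAGTTC) 152 bases before it. The HNF4-type letters occurred in 0.898% of 32851 promoter windows of this length and the TATA-like letters in 3.05%. Both were chosen after the Pdk4 sequence was seen, and no other member had either. The Pdk2 window held 3 CCAAT boxes and 1 E-box (CACGTG), the Mpc1 window 2 CCAAT boxes and 1 GC box (GGGCGG), and the Pdha1 window no match. CCAAT boxes were in 7 of the 12 member windows, against 33.8% of all windows, and GC boxes also in 7, against 32.7%. A FoxO motif (GTAAACA) was in no member window and in 3.17% of all windows, and the nuclear receptor core motif (AGGTCA) was only in the other Mpc1 window, against 14% of all. The Pdk4 window had 6 CpG dinucleotides, as many as the median window, whereas the Mpc1 window shown had 32 and the Pdk2 window 19. These are matches of letters and not binding sites.

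Across all 12 livers the carriers had the highest mRNA levels per length of transcript and the 3 abundant kinases were intermediate. Mpc1 averaged 119 TMM-normalized CPM per kb of its longest transcript and Mpc2 averaged 48.9. The E1 subunits followed, with 34.2 for Pdha1 and 26.1 for Pdhb on the same scale. Pdk2, Pdk1 and Pdk4 lay at 18.4, 17.1 and 16.1 with the longest transcripts, and their ranges over mice overlapped. Pdp2 averaged 5.64, Pdp1 0.261 and Pdk3 0.118, so Pdp2 supplied nearly all phosphatase mRNA. Pdk3 was covered by only 10 to 31 counts a liver and Pdp1 by 24 to 52. These orders depended on the transcript chosen. With the canonical transcripts Pdhb averaged 60.8 and Pdha1 45.8. Pdk2 also stood higher on that scale, at 34.8 CPM per kb against 17.4 for Pdk1 and 16.1 for Pdk4.

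**Figure D1:**
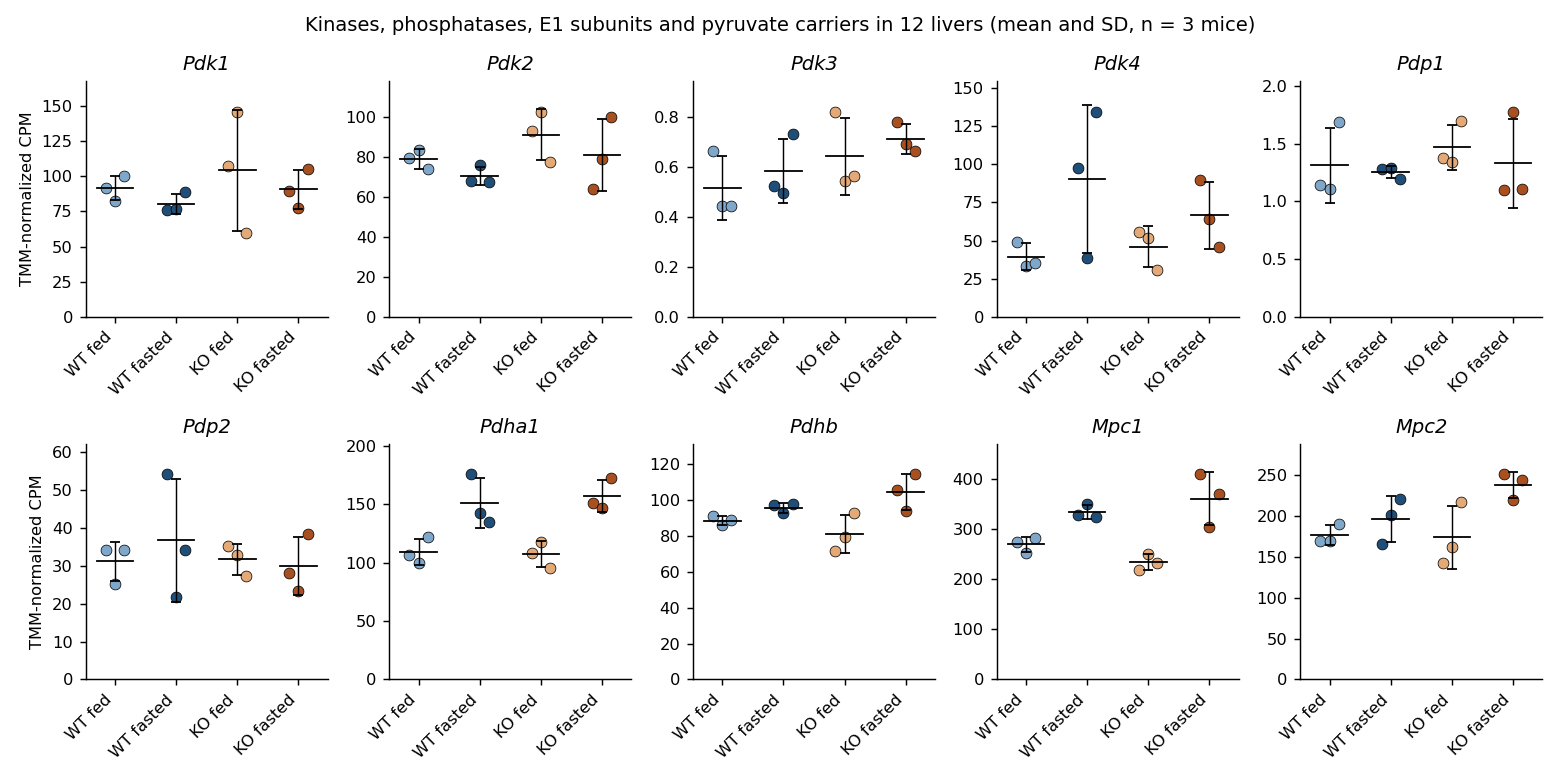
TMM-normalized CPM (linear axes from 0, a scale of its own for each gene) of the 10 genes in each of 12 livers; points are mice, horizontal lines group means and bars the SD of 3 mice, and WT and KO stand for the Nts+/+ and Nts-/- labels. Pdha1 and Mpc1 lie higher in all 6 fasted livers than in all 6 fed livers, and Pdk4 is spread widely among the fasted livers.

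Pdk4 (chr6:5483351-5496309) had the largest fasting fold change of the 10 genes in Nts+/+ livers, but the change was uneven from mouse to mouse and did not pass the test. Fed Nts+/+ livers had 49.3, 33.1 and 35.3 TMM-normalized CPM of Pdk4, and fasted Nts+/+ livers had 97.8, 38.3 and 134. Of the fasted livers, 2 stood above every fed liver and mouse 282, at 38.3, lay inside the fed range. The fold change was 2.30 (log2 1.20, SE 0.43, 95% interval 0.23 to 2.16), which missed the threshold of edgeR's quasi-likelihood test after Benjamini-Hochberg adjustment (adjusted p = 0.0846). Without mouse 282 the log2 change was 1.56 and passed (edgeR adjusted p = 0.0114), and without mouse 322 it was 0.79 and did not (edgeR adjusted p = 0.246). The Wald test of DESeq2 passed it on all mice (adjusted p = 0.0431).

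In the 6 pyruvate genes outside the switch that passed in fasting, mouse 282 lay outside the fed range on the side of the other fasted mice. Those 6 were picked because they passed in a fit that included mouse 282, so its place outside the fed range was partly set by that choice. Its Pcx, which encodes pyruvate carboxylase, was at 726 TMM-normalized CPM, against 370 to 417 in fed Nts+/+ livers. Its Slc16a7, a monocarboxylate carrier of the plasma membrane, was at 215, against 74.2 to 81.6 in the fed livers. What set its Pdk4 level was not tested.

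In Nts-/- livers Pdk4 was at 55.8, 51.3 and 30.9 TMM-normalized CPM when fed and at 89.6, 64.4 and 45.8 when fasted. The groups overlapped through mouse 295, at 45.8. The log2 change of 0.53 (SE 0.43, 95% interval -0.42 to 1.49) did not pass (edgeR adjusted p = 0.440). Averaged over both genotypes, a contrast added after the data were seen, the log2 change of Pdk4 was 0.87 (SE 0.30, edgeR adjusted p = 0.0529). That value lay at the threshold, and it passed with RLE normalization (edgeR adjusted p = 0.0497) and without mouse 282 (0.0038) or mouse 295 (0.0434). Without mouse 322 the log2 change was 0.66, and over single omissions the edgeR adjusted p reached 0.115.

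The other kinases had no change that passed. Pdk2 (chr11:95026258-95041354), the most widely expressed kinase of the family, was at 79.1, 83.4 and 73.7 TMM-normalized CPM in fed and 68.0, 75.7 and 67.5 in fasted Nts+/+ livers. The levels of Pdk2 in Nts-/- livers were 93.0, 102 and 77.2 fed and 63.9, 78.9 and 99.7 fasted. Its log2 change in fasting was -0.16 in Nts+/+ and -0.17 in Nts-/- livers (SE 0.16 for each), and the groups overlapped in both genotypes.

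Pdk1 (chr2:71873224-71903858), a kinase gene known to be induced by hypoxia, was at 91.6, 82.8 and 99.9 TMM-normalized CPM in fed and 75.9, 76.4 and 88.6 in fasted Nts+/+ livers. The fed Nts-/- livers were the most spread for it, at 107, 146 and 59.5, and the fasted ones were at 89.3, 77.8 and 106. Mouse 319 held the lowest of these values and mouse 303 the highest. The log2 change of Pdk1 in Nts-/- livers was -0.20 (SE 0.24), which moved to -0.48 without mouse 319 and to 0.14 without mouse 303, and neither value passed. Pdk3 (chrX:93764607-93832201) lay between 0.441 and 0.820 CPM in all livers, with log2 changes of 0.18 (SE 0.34) and 0.12 (SE 0.33) and 95% intervals that reached 0.92 and 0.83.

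**Figure D2:**
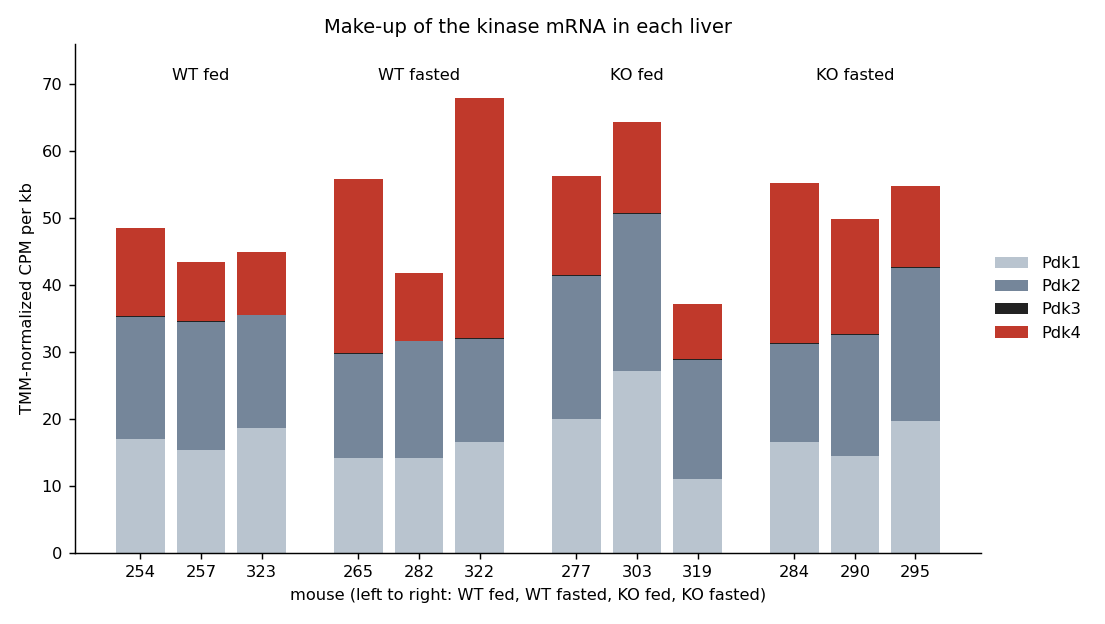
TMM-normalized CPM per kb of the longest transcript (linear axis from 0) for the 4 kinases, stacked for each of 12 livers named by mouse number; WT and KO stand for the Nts+/+ and Nts-/- labels. Pdk4 takes 20.3 to 27.1% of the stack in all 6 fed livers and 22.2 to 52.7% in the fasted livers, and Pdk3 is hardly visible.

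The share of Pdk4 in the kinase mRNA was more spread in fasted livers than in fed ones. Pdk4 made up 22.8% ± 3.76 (SD, n = 3) of the kinase mRNA per length in fed Nts+/+ livers and 41.2% ± 14.9 in fasted Nts+/+ livers. Its share in Nts-/- livers was 23.2% ± 2.75 fed and 33.2% ± 10.5 fasted. Pdk2 held 39.7% ± 3.76 of it in fed and 30.8% ± 9.64 in fasted Nts+/+ livers. In the fasted mice 265, 322, 284 and 290 the Pdk4 share ran from 34.4 to 52.7%, above every fed liver, while mice 282 and 295 were at 24.3 and 22.2%. The sum over the kinases was 45.6 ± 2.58 and 55.2 ± 13.0 CPM per kb in fed and fasted Nts+/+ livers, and 52.6 ± 14.0 and 53.3 ± 3.03 in Nts-/- livers. The Nts+/+ means differed by more than the fed SD and by less than the fasted SD. In Nts-/- livers the means differed by less than either SD. These sums and shares are descriptions without a test.

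The phosphatases, which reverse the kinases, showed no change that passed. Pdp2 (chr8:104591451-104599026), a phosphatase known as insulin-responsive, was at 34.0, 25.1 and 34.2 TMM-normalized CPM in fed and 54.0, 21.8 and 34.2 in fasted Nts+/+ livers. Mouse 265 gave the highest and mouse 282 the lowest of all 12 values, both in the fasted Nts+/+ group. Pdp2 in Nts-/- livers was at 35.2, 32.8 and 27.2 fed and 28.1, 23.4 and 38.3 fasted. Its log2 change was 0.23 (SE 0.29) in Nts+/+ and -0.08 (SE 0.29) in Nts-/- livers. Pdp1 (chr4:11958184-11966452), a calcium-stimulated phosphatase, stayed between 1.10 and 1.78 CPM in all livers, with log2 changes of -0.06 (SE 0.28) and -0.15 (SE 0.27). The ratio of kinase to phosphatase mRNA per length was 8.17 ± 1.18 in fed and 9.03 ± 2.83 in fasted Nts+/+ livers, and 8.97 ± 1.73 and 10.0 ± 1.78 in Nts-/- livers, so fasting moved it by less than the SD of the fasted group.

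Of the catalytic E1 subunits, Pdha1 rose in fasted livers of both genotypes. Pdha1 (chrX:160122209-160138413), the alpha subunit that the kinases phosphorylate, was at 106, 99.7 and 122 TMM-normalized CPM in fed and 176, 143 and 135 in fasted Nts+/+ livers. In Nts-/- livers it was at 109, 118 and 95.4 fed and 151, 147 and 173 fasted. All 6 fasted livers lay above all 6 fed livers, which was so for 8.05% of all genes, and for 15.9% in either direction. Pdha1 rose 1.38-fold in Nts+/+ (log2 0.47, SE 0.14, edgeR adjusted p = 0.0325) and 1.46-fold in Nts-/- livers (log2 0.55, SE 0.14, edgeR adjusted p = 0.0158). The call in Nts+/+ livers was lost without mouse 254, 257, 265 or 282 (edgeR adjusted p = 0.0698 to 0.116) and when only these 6 mice were fitted (0.0601). The call in Nts-/- livers was lost without mouse 277 (edgeR adjusted p = 0.0501) or mouse 295 (0.0599). The average log2 change over both genotypes was 0.51 (SE 0.098, edgeR adjusted p = 0.0015), and that call held whichever mouse was left out.

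Pdhb (chr14:8165991-8172992), the beta subunit, had smaller log2 changes and passed only in the average over both genotypes. Its levels in Nts+/+ livers were 90.9, 86.1 and 88.6 TMM-normalized CPM fed and 97.2, 92.5 and 97.5 fasted. The Nts-/- livers were at 71.5, 79.1 and 92.6 fed and at 106, 94.0 and 114 fasted. Fasted livers lay above fed livers in each genotype, but mouse 319, fed and Nts-/-, lay above mouse 282, fasted and Nts+/+. The log2 change was 0.11 (SE 0.12, edgeR adjusted p = 0.552) in Nts+/+ and 0.37 (SE 0.12, edgeR adjusted p = 0.0501) in Nts-/- livers, and the latter passed with RLE normalization (edgeR adjusted p = 0.0475) and without mouse 319 (0.0153). Without mouse 277 it was 0.29, and over single omissions its edgeR adjusted p reached 0.208. The average over both genotypes was 0.24 (SE 0.085, edgeR adjusted p = 0.0426), a call that ended with upper-quartile normalization (0.0827), with no count filter (0.0868) and without any mouse except 290 or 319 (0.0601 to 0.116).

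Of the pyruvate carriers, Mpc1 rose in fasted Nts-/- livers, where it had the smallest p of the 10 genes, and in the average over both genotypes. Mpc1 (chr17:8282904-8297661) was at 275, 253 and 281 TMM-normalized CPM in fed and 328, 350 and 325 in fasted Nts+/+ livers. Mpc1 in Nts-/- livers was at 219, 251 and 232 fed and 409, 304 and 369 fasted. As for Pdha1, all 6 fasted livers lay above all 6 fed livers. Mpc1 rose 1.54-fold in Nts-/- livers (log2 0.62, SE 0.13, edgeR adjusted p = 0.00589), a call that held whichever mouse was left out. In Nts+/+ livers the 1.24-fold difference (log2 0.31, SE 0.13, 95% interval 0.029 to 0.59) did not pass (edgeR adjusted p = 0.117). Over both genotypes the average log2 change was 0.47 (SE 0.092, edgeR adjusted p = 0.00174).

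Mpc2 (chr1:165460637-165481214), the partner of Mpc1 in the carrier, was at 170, 169 and 191 TMM-normalized CPM in fed and 166, 201 and 221 in fasted Nts+/+ livers, and these groups overlapped. In Nts-/- livers it was at 143, 162 and 217 fed and 251, 220 and 244 fasted, without overlap. Its log2 changes of 0.15 (SE 0.16) and 0.45 (SE 0.16) did not pass (edgeR adjusted p = 0.554 and 0.0676). Without mouse 319, which had the highest fed level, the latter was 0.65 and passed (edgeR adjusted p = 0.0102). Without mouse 277 it was 0.33, and over single omissions its edgeR adjusted p reached 0.257. The ratio of Mpc1 to Mpc2 per length was 2.43 ± 0.123 in fed and 2.75 ± 0.406 in fasted Nts+/+ livers, and 2.20 ± 0.432 and 2.40 ± 0.198 in Nts-/- livers.

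**Figure D3:**
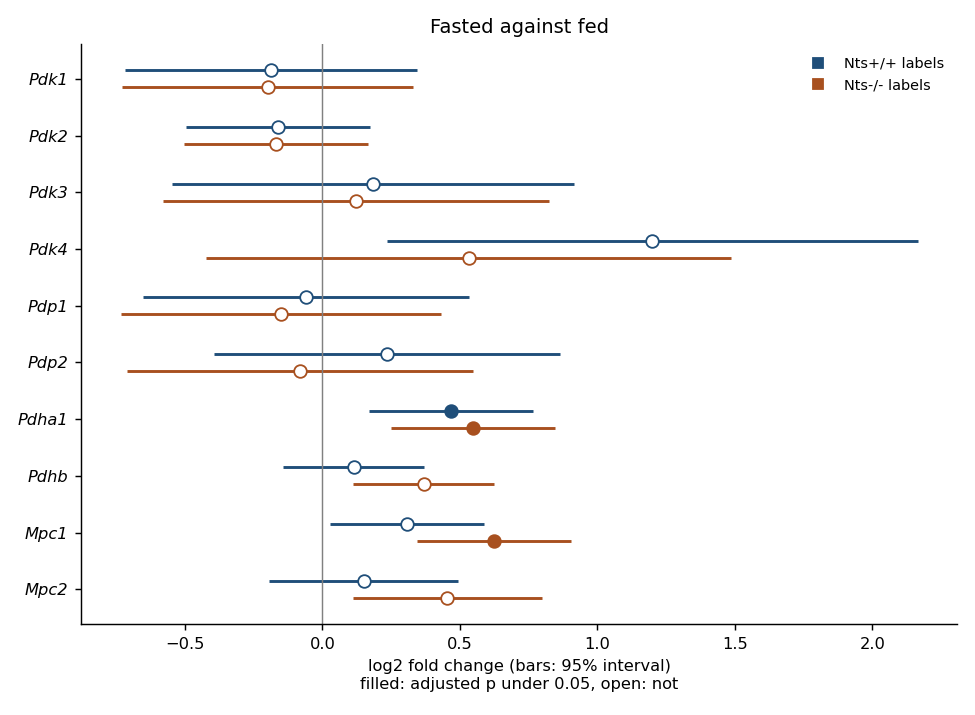
Log2 fold change of the 10 genes between fasted and fed livers (horizontal axis, 0 marks no change), in livers labelled Nts+/+ and Nts-/-; points are edgeR estimates over 3 against 3 mice, bars are 95% intervals, and filled points have an adjusted p under 0.05. Filled points are Pdha1 in both genotypes and Mpc1 in Nts-/- livers, and Pdk4 has the widest intervals, 0.23 to 2.16 in Nts+/+ livers.

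Counted together, 1 of the 10 genes passed in Nts+/+ livers and 2 in Nts-/- livers, all of them higher in fasted livers. Among all 13812 genes tested, 18.1% passed in Nts+/+ and 16.8% in Nts-/- livers, 8.91% and 7.7% as higher in fasting, so these counts of members were near the background. Fasted and fed mice did not overlap for 3 of the 10 genes in Nts+/+ livers, against 36% of all genes, and for 4 in Nts-/- livers, against 35.2%. All of these lay higher in fasting, as did 18.1% and 17.1% of all genes. The median log2 change of the 10 genes was 0.17 in Nts+/+ and 0.25 in Nts-/- livers, whereas the median over all genes tested was -0.003 and -0.011. In the average over both genotypes, Pdha1, Pdhb and Mpc1 passed as higher and Pdk1, Pdk2, Pdk3, Pdk4, Pdp1, Pdp2 and Mpc2 did not. This was 3 of 10, against 32.8% of all genes in either direction and 16% higher. In the same comparisons the markers of other liver cells moved, and their part in these values was not tested. The summed level of 6 sinusoidal endothelium markers was 154 to 226 CPM in fed and 136 to 147 in fasted Nts+/+ livers, and 175 to 195 and 129 to 147 in Nts-/- livers. Of these 6, 2 passed as lower in each genotype. Lyve1 went the other way and passed as higher in Nts+/+ livers, with a mean of 6.12 CPM fed and 13.7 fasted. The 7 Kupffer cell markers summed to 485 to 556 CPM in fed and 246 to 423 in fasted Nts+/+ livers and overlapped in Nts-/- livers. Of the 7 stellate cell markers, 3 fell in fasted Nts+/+ and 5 in fasted Nts-/- livers, with median log2 changes of -0.59 and -0.94. Their summed level was 232 to 258 CPM fed and 190 to 215 fasted in Nts+/+ livers and 204 to 283 and 193 to 208 in Nts-/- livers, where Dcn, the most abundant of them, was at 149 in both feeding states. The 5 cholangiocyte markers summed to 34.0 to 49.7 CPM in fed and 13.7 to 26.2 in fasted Nts+/+ livers, and to 33.4 to 35.7 and 15.1 to 29.6 in Nts-/- livers. Spp1 made up most of that sum, with means of 34.5 CPM fed and 17.3 fasted in Nts+/+ livers. Of the 4 cholangiocyte markers tested, 1 passed as lower in each genotype. Mean Sox9 was higher in fasted Nts+/+ livers (2.68 CPM fed, 3.26 fasted), and mean Epcam in fasted Nts-/- livers (1.01 fed, 1.17 fasted). The 7 hepatocyte markers summed to 107835 to 122904 CPM in fed and 125186 to 133838 in fasted Nts-/- livers, and overlapped in Nts+/+ livers. Alb made up most of that sum, and in each genotype 2 of the 7 passed as higher and 1, Ttr, as lower. Ttr averaged 6951 CPM in fed and 3734 in fasted Nts-/- livers. In whole tissue, fewer cells of a type and less RNA per cell cannot be told apart.

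None of the 10 genes passed between the genotype labels in either feeding state. Of all 13812 genes, 0% passed in edgeR in the fed comparison, where 876 (6.34%) had an unadjusted p under 0.05, and 0% in the fasted one, where 685 (4.96%) did. No member was among those, and DESeq2, which passed 12 and 1 genes, passed no member. The largest fed difference in relation to its error was that of Mpc1, which was 0.20 lower on the log2 scale in Nts-/- livers (log2 -0.20, SE 0.13, edgeR adjusted p = 0.814). Its fed groups did not overlap, 219 to 251 against 253 to 281 TMM-normalized CPM, as was the case in this direction in 5.85% of all genes. The other fed differences, those of Pdk1, Pdk2, Pdk3, Pdk4, Pdp1, Pdp2, Pdha1, Pdhb and Mpc2, lay between -0.13 for Pdhb and 0.32 for Pdk3 on the log2 scale. In fasted livers Pdk4 was at 66.6 ± 22.0 in Nts-/- and 90.2 ± 48.5 TMM-normalized CPM in Nts+/+ mice, a log2 difference of -0.44 (SE 0.43, 95% interval -1.39 to 0.51). Mpc2 in fasted livers differed by 0.28 (SE 0.16, 95% interval -0.06 to 0.62, edgeR adjusted p = 0.917). Those of Pdk1, Pdk2, Pdk3, Pdp1, Pdp2, Pdha1, Pdhb and Mpc1 in fasted livers lay between -0.29 for Pdp2 and 0.26 for Pdk3. Averaged over both feeding states, where edgeR passed 0 genes, 859 (6.22%) had an unadjusted p under 0.05 and DESeq2 passed 15 and no member, the smallest p among the 10 was that of Pdk2 (log2 0.20, SE 0.11, edgeR adjusted p = 0.788). With intervals that reach -1.39 for Pdk4 and 0.62 for Mpc2 in fasted livers, the labels were not shown to be alike.

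**Figure D4:**
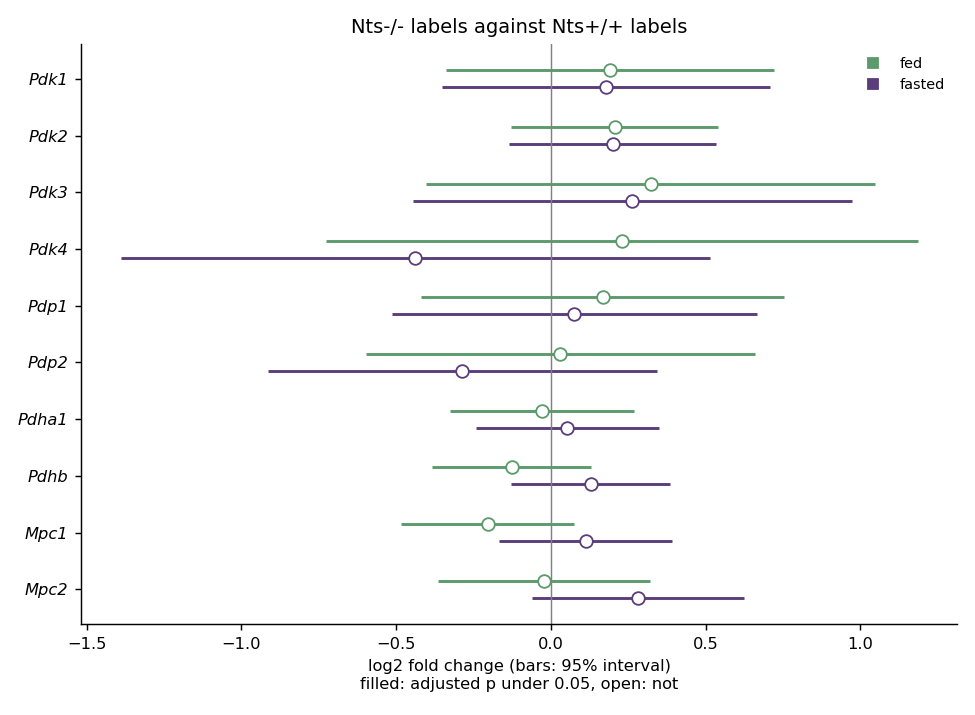
Log2 fold change of the 10 genes between livers labelled Nts-/- and Nts+/+ (horizontal axis, 0 marks no difference), in fed and fasted mice; points are edgeR estimates over 3 against 3 mice and bars 95% intervals. All 20 intervals include 0 and no point is filled, and the interval of Pdk4 in fasted livers runs from -1.39 to 0.51.

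The fasting response itself was compared between the genotypes in the same model, and 0% of the 13812 genes passed, with 663 (4.8%) at an unadjusted p under 0.05 and 2 passing in DESeq2. No member was among them. The response of Pdk4 was 0.67 lower on the log2 scale in Nts-/- livers (log2 -0.67, SE 0.60, 95% interval -2.02 to 0.68, edgeR adjusted p = 0.906). The responses of Mpc1, Mpc2 and Pdhb were higher by 0.32 (SE 0.18), 0.30 (SE 0.23) and 0.25 (SE 0.17) on that scale, and none passed. For Pdk1, Pdk2, Pdk3, Pdp1, Pdp2 and Pdha1 the difference was smaller than its standard error. Mpc1 passed in Nts-/- and not in Nts+/+ livers, but this difference did not pass a test of its own (edgeR adjusted p = 0.897).

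Several genes around the switch rose or fell by more than 2-fold in fasted livers. Of 10 other pyruvate enzymes and monocarboxylate carriers, 4 rose and 2 fell in fasted livers of each genotype, against 18.1% and 16.8% of all genes that passed in either direction. This list and those of the next paragraphs were chosen with earlier results of these data known, which may have raised such counts. Pcx, which feeds gluconeogenesis, rose by 1.07 in Nts+/+ and 1.08 in Nts-/- livers on the log2 scale (SE 0.17 for each), and Gpt2, the mitochondrial alanine transaminase that makes pyruvate from alanine, by 1.30 (SE 0.26) and 0.93 (SE 0.26). Ldha, which interconverts lactate and pyruvate, rose by 0.86 (SE 0.20) and 1.20 (SE 0.20), and Slc16a7 by 1.32 (SE 0.18) and 1.06 (SE 0.18). Pklr, the liver pyruvate kinase of glycolysis, fell by 1.49 (SE 0.35) and 1.46 (SE 0.35), and Pkm, the other pyruvate kinase gene, fell by 0.61 (SE 0.14) and 0.46 (SE 0.14). Each of these changes passed in edgeR.

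Of 7 other subunits and lipoylation factors of the complex, only Pdhx, the E3-binding protein, passed, with a rise of 0.45 (SE 0.12) in Nts+/+ and 0.40 (SE 0.12) in Nts-/- livers on the log2 scale. With 1 gene of 7 in each genotype, the list was near the share of all genes that passed. Among 7 genes of the sister complexes for oxoglutarate and branched-chain keto acids, 3 rose in Nts+/+ and 2 in Nts-/- livers. Of all genes tested, 8.91% and 7.7% passed as higher in these comparisons. Dlst and Ogdh, the E2 and E1 of the oxoglutarate complex, rose in both genotypes, Dlst by 0.83 and 0.83 (SE 0.15 for each) and Ogdh by 0.73 and 0.53 (SE 0.16 for each) on the log2 scale. Bckdk, the kinase of the branched-chain complex and a relative of the PDK kinases, rose in Nts+/+ livers by 0.50 (SE 0.14, edgeR adjusted p = 0.029) and had a log2 change of 0.33 in Nts-/- livers that did not pass.

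Of 7 known transcriptional regulators of Pdk4, 1 rose in Nts+/+ livers and 1 fell in Nts-/- livers, which is near the share of all genes that passed. Ppara, the nuclear receptor of fatty acids, rose by 0.89 on the log2 scale in Nts+/+ livers (SE 0.21, edgeR adjusted p = 0.0119). Nr3c1, the glucocorticoid receptor, fell by 0.61 on that scale in Nts-/- livers (SE 0.15, edgeR adjusted p = 0.0144). Whether either response differed between the genotypes was tested over all genes, and neither passed. Averaged over both genotypes, Ppara (0.75), Ppargc1a (0.87) and Esrra (0.53) rose, Nr3c1 fell by 0.47, and the other 3 did not pass. So 3 of 7 passed as higher and 1 as lower, against 16% of all genes higher and 32.8% in either direction. Ppargc1a passed in neither genotype alone. It ran from 6.78 to 25.0 CPM in fasted Nts-/- livers, against 6.84 to 8.06 in fed ones. In Nts+/+ livers it ran from 10.3 to 11.0 CPM fasted, against 5.54 to 7.35 fed. In no list did any gene pass between the genotype labels.

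**Figure D5:**
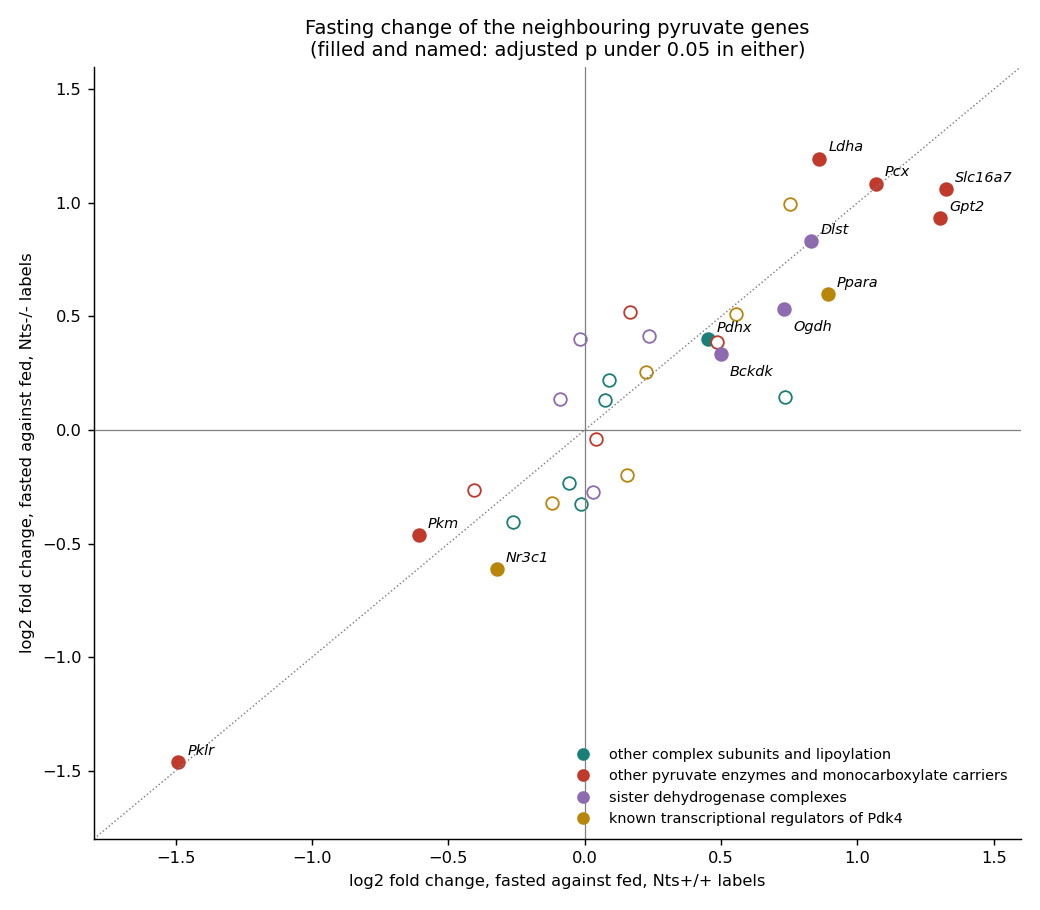
Log2 fold change between fasted and fed livers of 31 genes around the pyruvate dehydrogenase switch, in livers labelled Nts+/+ (horizontal axis) and Nts-/- (vertical axis); colours are the gene lists, filled and named points have an edgeR adjusted p under 0.05 in either genotype, and the dotted line marks equal changes. Slc16a7, Gpt2, Pcx and Ldha lie at the upper right and Pklr lies at the lower left, at -1.49 and -1.46.

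The members fell into patterns of their own across the 12 livers, given here as Pearson correlations of log2 CPM over 12 mice that share feeding state and so carry no p. Mpc1 correlated with Pdha1 at 0.84 and with Pdhb at 0.83, and Pdhb with Mpc2 at 0.84. Pdk4 correlated with Pdha1 at 0.55 and with Pdk2 at -0.46. The 5 genes most like Mpc1 were Casz1 (r = 0.939), Acadl (0.936), Spp2 (0.933), Ech1 (0.932) and Cyp2e1 (0.926). Casz1 was close to the floor of 3 counts in fed Nts-/- livers, at 0.161 to 0.253 TMM-normalized CPM. Acadl and Ech1 encode enzymes of fatty acid oxidation. Acadl was at 255 ± 27.8 TMM-normalized CPM in fed and 482 ± 32.7 in fasted Nts+/+ livers (SD, n = 3). The 5 genes most like Pdk4 were Eda (r = 0.895), Kdm6a (0.867), Tnfrsf26 (0.851), Gm20621 (0.843) and Nhlrc3 (0.840). Eda was at 1.50 ± 0.155 TMM-normalized CPM in fed and 2.31 ± 0.453 in fasted Nts+/+ livers, and Gm20621 was near the floor of 3 counts in fed livers.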

How the data were processed

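Total RNA of 12 livers was extracted with a column kit, reverse transcribed and sequenced, and per the labels all samples belong to one batch. Expected counts, the unit of the 1 table deposited, are the authors' estimates of reads assigned to each gene; they need not be whole and are not scaled to depth. The submitters' processing notes name Trimmomatic, RSEM and GRCm38, and versions are not given in the sources used here. How the counting treated strand is also not given. Count columns of samples outside the 12 mice numbered 0.

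Expected counts were rounded. In R 4.3.3, edgeR 4.0.16 kept 13812 genes (filterByExpr), normalized by TMM and fitted 1 mean per group over all 12 mice with robust quasi-likelihood tests. Benjamini-Hochberg adjustment ran over all genes tested, and an adjusted p under 0.05 passed. CPM values are TMM-normalized, and correlations used log2 CPM with a prior count of 2. Depth puts a floor of 3 counts at 0.0663 to 0.136 CPM, which covers counting error only. Levels per length used GENCODE transcript lengths matched by Ensembl identifier for 10 of 10 genes. Each mouse was 1 sample. No pair of libraries of the same group agreed within sampling noise. On simulated counts for the Nts+/+ fasting comparison (13640 genes), the fit recovered 93 of 100 genes changed 4-fold and 68 of 100 changed 2-fold.

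The 10 genes and all lists were chosen with earlier results of these data known. By rule all 10 genes are named in every comparison, although over both feeding states only Pdk2 is given a value. Also named are genes of the lists around the switch that passed in fasting within a genotype. Of list genes that passed only in the added average, only regulators of Pdk4 are named. The 5 genes most correlated with Pdk4 and Mpc1 are named too. Alternatives were RLE and upper-quartile normalization, DESeq2 1.42.0, dropping the count filter or asking for 10 or more counts in each liver, fitting the compared mice alone, an adjusted p under 0.1, other transcript lengths and leaving out each mouse. The average over both genotypes in fasting and the canonical lengths were added after seeing the data. Protein sequences were not used here.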

Additional observations from a re-analysis of the deposited data

How the results depend on the processing

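No paired analysis was possible because the mouse numbers of the labels differ between all 4 groups and the litters are not given. The number of members that passed in Nts+/+ fasting, 1, became 2 with DESeq2 or an adjusted p under 0.1 (Pdha1 and Pdk4) and 0 with only the mice compared, where 20.1%, 25.8% and 15.3% of all genes tested passed, and ranged from 0 to 1 when single mice were left out. In Nts-/- fasting, 2 became 4 with DESeq2 or an adjusted p under 0.1, as Pdhb and Mpc2 were added, against 18.7% and 24.8% of all genes, and ranged from 1 without mouse 277 or 295 to 4 without mouse 319. Averaged over both genotypes, 3 became 5 in the same 2 settings, against 28.4% and 40.5% of all genes, and ranged from 2 to 5, where the 5 without mouse 319 included Pdk1. No alternative passed a member between the genotype labels or in the difference of the responses. The log2 changes changed sign when a mouse was left out in the Nts+/+ fasting response for Pdp1 (-0.17 to 0.16), Pdp2 (-0.14 to 0.50) and Pdk3 (-0.027 to 0.41), in the Nts-/- fasting response for Pdp2 (-0.30 to 0.070) and Pdk1 (-0.48 to 0.14), in the fed genotype difference for Pdp2 (-0.10 to 0.13), Pdha1 (-0.10 to 0.058), Mpc2 (-0.21 to 0.11) and Pdk1 (-0.14 to 0.47) and in the fasted genotype difference for Pdp2 (-0.54 to 0.094), Pdha1 (-0.022 to 0.17) and Pdp1 (-0.18 to 0.20); none of these values passed under any of these omissions. The other settings reversed no printed change. With the median transcript length the kinase to phosphatase ratio became 11.3 in fed Nts+/+, 12.4 in fed Nts-/- and 13.3 in fasted Nts-/- livers, and 11.1, 12.2 and 13.1 with the canonical length. The Pdk4 share of the kinase sum became 16.8% in fed Nts+/+ and 17.0% in fed Nts-/- livers with the median length, and 16.7% and 17.0% with the canonical length. Its share in fasted livers of each genotype fell too, by less than the SD of the fasted group. The omitted mouse was the only change in each of those fits, and for other settings the cause was not tested. With 3 mice a group and a biological coefficient of variation of 0.202 over genes, small differences may have been missed.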
